A study of Rattus norvegicus with 10 samples.

Results

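The mitochondrial ribosome protein genes are those whose symbol is Mrpl (large subunit) or Mrps (small subunit) followed by a number, with or without a letter. On the rat array 73 of the 14217 genes with 1 symbol had such a name, 46 of the large and 27 of the small subunit. They were covered by 97 probe sets, and each gene was represented by the probe set with the highest mean over all 10 arrays. All 73 passed the filter on low values, and their lowest value on any array was 7.56 on the log2 scale (Mrpl38, nonpulsed, series 1), far above the lowest values of the arrays (3.32 to 3.46).

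The arrays measured total RNA of ventricular heart muscle cells isolated from newborn Lewis rats (0-3 days) and grown in primary culture for 3 days of treatment. The treatments were electric pulses with blebbistatin (n = 3 arrays, from culture series 2, 3 and 4), electric pulses alone (pulsed, n = 4, from series 1 to 4) and no electric stimulation (nonpulsed, n = 3, from series 1, 2 and 3). The pulses had a rate of 1 Hz and a field of 2 V/cm. Blebbistatin, which inhibits myosin II and stops the cells from contracting, was used at 10 µmol/L. RNA from duplicate experiments was pooled for every array. No array held nonpulsed cells with blebbistatin, so effects of the drug itself and of blocked contraction cannot be told apart. With so few arrays, their number sets the precision.

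Cardiac muscle cells carry many mitochondria, whose own genome encodes a few core subunits of the respiratory chain. The mitochondrial ribosome translates these subunits. Its RNAs come from the mitochondrial genome, while all of its proteins are encoded in the nucleus, made in the cytosol and imported. Some of these proteins descend from those of the bacterial ribosome and others are found only in mitochondria.

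The 11 cardiomyocyte markers measured were bright on all arrays, with log2 summed levels of 16.49 to 16.56 with blebbistatin, 16.38 to 16.60 in pulsed and 15.89 to 16.38 in nonpulsed arrays. Fibroblast, smooth muscle, macrophage and endothelial markers were present as well, so the cultures were not pure. The median of all probe sets lay between 6.57 and 6.78 on the 10 arrays. The log2 difference between 3′ and 5′ probe sets of actin, a measure of RNA integrity, averaged 0.72 ± 0.04 with blebbistatin (SD, n = 3), 0.67 ± 0.05 in pulsed (SD, n = 4) and 0.59 ± 0.12 in nonpulsed arrays (SD, n = 3), with overlap. The same measure of GAPDH was 0.19 to 0.22 with blebbistatin, 0.06 to 0.17 in pulsed and 0.06 to 0.17 in nonpulsed arrays, so the blebbistatin arrays lay above all others.

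The mitochondrial ribosome genes were mostly high or low together on an array. The median log2 value of the 73 genes was 9.93, 10.13 and 10.09 in the arrays with blebbistatin (series 2, 3 and 4). It was 9.88, 9.99, 9.97 and 9.63 in the pulsed arrays (series 1 to 4) and 9.58, 10.09 and 10.04 in the nonpulsed arrays (series 1 to 3). The group means were 10.05 ± 0.11 with blebbistatin (SD, n = 3), 9.87 ± 0.17 in pulsed (SD, n = 4) and 9.90 ± 0.28 in nonpulsed arrays (SD, n = 3), and the groups overlapped. Of the 73 genes, 72 lay above their own mean on the blebbistatin array of series 3, whereas 1 did so on the pulsed array of series 4 and 1 on the nonpulsed array of series 1. These 2 arrays stood low as a whole for these genes, and each was the array of its group in a series that did not hold all 3 treatments. They were also the 2 lowest arrays for the lists of respiratory chain and mitochondrial import genes described below. The nonpulsed array of series 1 had the lowest summed cardiomyocyte level (15.89) and the highest smooth muscle (14.80) and macrophage (12.55) levels of all arrays. The part of the cell mix in this was not tested.

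**Figure D1:**
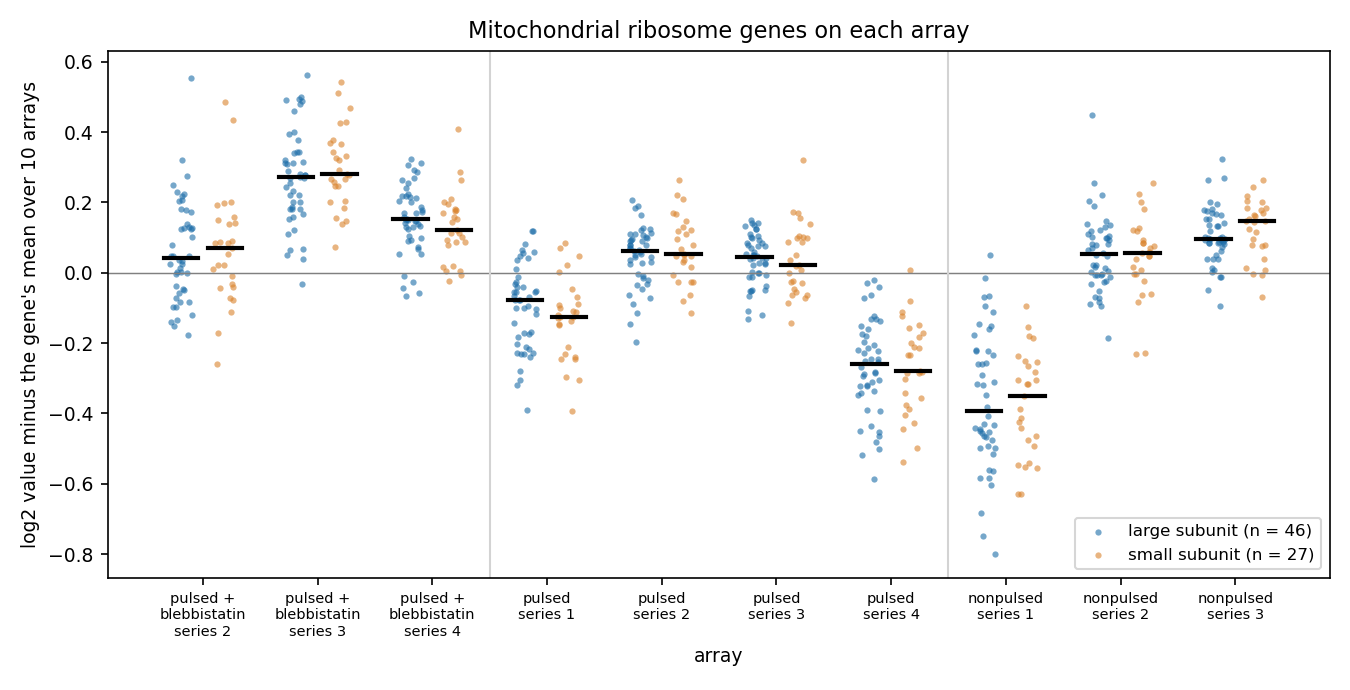
Log2 value of each mitochondrial ribosome gene minus its own mean over the 10 arrays (vertical axis), for each array (horizontal axis), with large subunit genes in blue, small subunit genes in orange and the median of each subunit as a black line. Both subunits lie lowest on the nonpulsed array of series 1 and the pulsed array of series 4, and highest on the blebbistatin array of series 3.

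Setting pulsed cultures treated with blebbistatin against pulsed cultures without it asks how much of a paced culture's expression depends on myosin activity. Most mitochondrial ribosome genes had slightly higher values with blebbistatin, without any single gene passing the test. The fitted change was positive for 70 of 73 genes, against 55.7% of all genes tested, and the 3 others (Mrpl20, Mrps17 and Mrpl54) lay close to 0. The median log2 change was 0.15, against 0.02 over all genes, and single genes ranged between -0.03 and 0.49. The GAPDH 3′ to 5′ difference was also higher on the blebbistatin arrays, and its part in these values was not tested. In these bulk samples a change in the share of muscle cells and a change in RNA per cell cannot be told apart.

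Of the 73 genes, 0 passed an adjusted p of 0.05 in limma, a threshold that 0.0163% of all genes passed, and the smallest adjusted value was 0.197. With no adjustment, 11 were higher at p under 0.05 (6 large and 5 small subunit genes), against 6.23% of all genes. None was lower at that level, as 5.60% of all genes were. In 39 genes the value with blebbistatin was higher in each of the 3 series that held both groups, which 24.1% of all genes showed, and 0 were lower in all 3. In 25 genes, 16 of the large and 9 of the small subunit, every blebbistatin array lay above every pulsed array, against 6.34% of all genes.

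The size of the difference depended on the culture series. The 73 genes had a median difference of 0.00, 0.23 and 0.42 in series 2, 3 and 4, where 39, 69 and 73 genes were higher with blebbistatin. The largest differences therefore came from series 4, whose pulsed array was low for these genes. Without series 4, or either of its arrays, the fitted median was 0.07 and 55 genes were positive. Without series 2 it was 0.26 and without the blebbistatin array of series 2 it was 0.27, with all 73 genes positive in both. The fitted change also draws on the nonpulsed arrays, and a fit of only the 2 groups compared gave a median of 0.19.

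**Figure D2:**
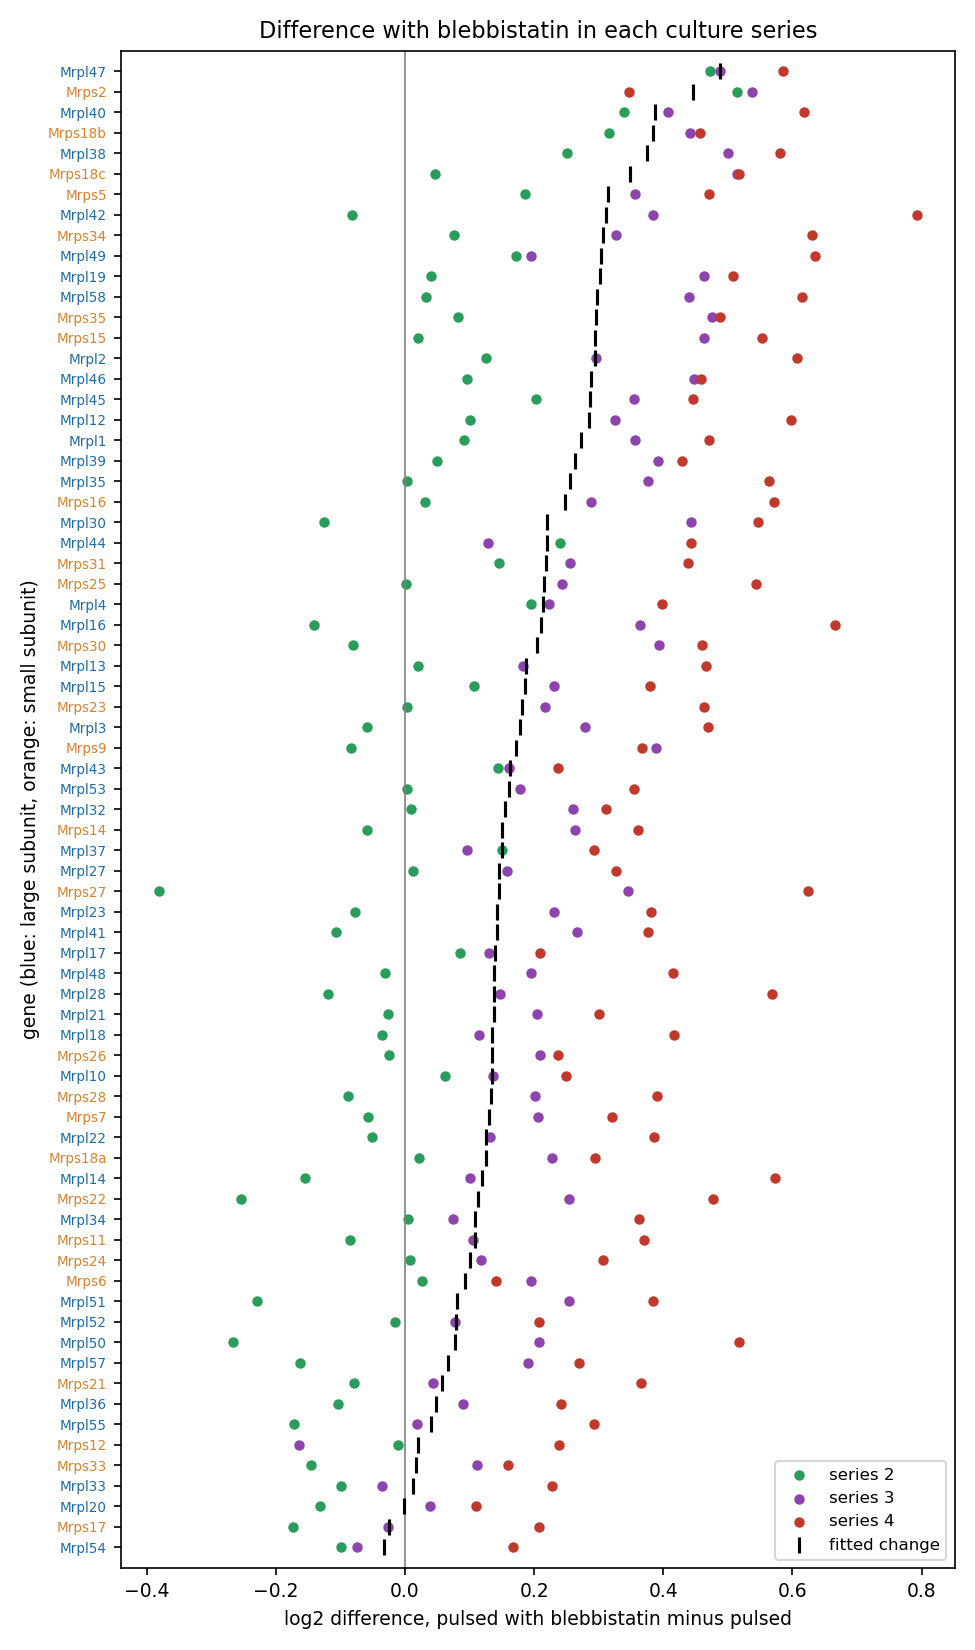
Log2 difference of pulsed with blebbistatin minus pulsed (horizontal axis) for each of the 73 genes (vertical axis, ordered by fitted change), with 1 dot per culture series and a black bar for the fitted change. The dots of series 2 lie around 0, those of series 4 are positive for every gene, and Mrpl47 and Mrps2 at the top are well above 0 in all 3 series.

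Mrpl47, the large subunit counterpart of a bacterial protein next to the exit of the ribosome's peptide tunnel, had the largest change. Its log2 value was 9.86, 9.87 and 9.42 with blebbistatin (series 2, 3 and 4), against 8.99, 9.39, 9.39 and 8.83 in pulsed (series 1 to 4) and 8.71, 9.26 and 9.40 in nonpulsed arrays (series 1 to 3). All 3 blebbistatin arrays lay above all other arrays. Its differences to the pulsed array of the same series were close to each other at 0.47, 0.49 and 0.59, and the fitted log2 change was 0.49 (SE 0.09, 1.40-fold, adjusted p = 0.197 in limma).

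Mrps2, the counterpart of bacterial S2 on the small subunit, had the second largest change. Its log2 value was 9.93, 9.96 and 9.56 with blebbistatin, against 9.30, 9.42, 9.42 and 9.21 in pulsed and 9.01, 9.22 and 9.44 in nonpulsed arrays. Again the 3 blebbistatin arrays were the 3 highest of the 10. The fitted change was 0.45 (SE 0.10, 1.36-fold, adjusted p = 0.247), and 2 further probe sets of Mrps2 gave 0.35 and 0.69.

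Mrps18b is 1 of 3 mitochondrial relatives of bacterial S18. Its log2 value was 10.92, 11.03 and 10.58 with blebbistatin, against 10.09, 10.60, 10.59 and 10.13 in pulsed and 9.85, 10.42 and 10.63 in nonpulsed arrays. The series 4 array with blebbistatin lay just below the pulsed arrays of series 2 and 3, so the groups overlapped, although within each series the array with blebbistatin was higher, by 0.32, 0.44 and 0.46. The fit gave 0.38 (SE 0.09, adjusted p = 0.275).

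Mrpl40 and Mrpl38 encode large subunit proteins without a bacterial counterpart. Mrpl40 had log2 values of 9.36, 9.51 and 9.33 with blebbistatin, against 9.05, 9.02, 9.10 and 8.72 in pulsed and 8.63, 9.16 and 9.21 in nonpulsed arrays. Mrpl38 had 8.68, 8.86 and 8.65 with blebbistatin, against 8.05, 8.43, 8.36 and 8.07 in pulsed and 7.56, 8.48 and 8.45 in nonpulsed arrays. For both genes the blebbistatin arrays lay above all other arrays. The fitted change against pulsed was 0.39 for Mrpl40 (SE 0.14, adjusted p = 0.361) and 0.38 for Mrpl38 (SE 0.14, adjusted p = 0.381).

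**Figure D3:**
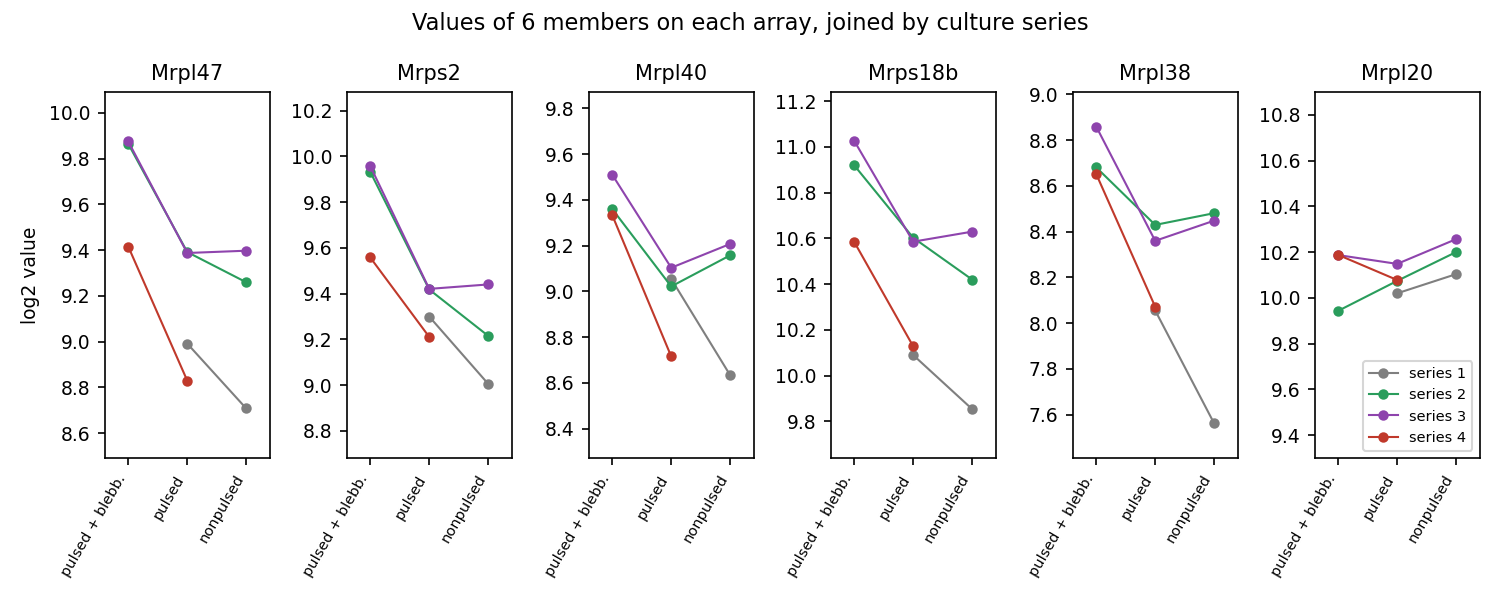
Log2 values (vertical axis) of 6 mitochondrial ribosome genes by treatment (horizontal axis), with 1 point per array and lines joining the arrays of a culture series. Every panel spans the same number of log2 units. The first 5 panels show the 5 largest rises among genes higher with blebbistatin in every series. By that choice each line falls between the array with blebbistatin and the pulsed array of its series, while for Mrpl20 the lines go both ways.

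Mrpl12, which also binds the mitochondrial RNA polymerase, had log2 values of 11.23, 11.34 and 11.28 with blebbistatin, against 10.80, 11.13, 11.02 and 10.69 in pulsed and 10.46, 11.22 and 11.12 in nonpulsed arrays. The blebbistatin arrays were the highest, but in series 2 the nonpulsed array was nearly as high (11.2312 with blebbistatin against 11.2178). Over the pulsed array of series 2 the difference was 0.10, and the fitted change against pulsed was 0.28 (SE 0.14, adjusted p = 0.471). Mrps12, a protein of the decoding centre, had a fitted change of 0.02 (SE 0.10) with series differences of -0.01, -0.16 and 0.24, which go both ways. Mrps30 and Mrps18a carry small subunit names but sit in the large subunit. The fit gave 0.20 for Mrps30 (SE 0.14) and 0.12 for Mrps18a (SE 0.13), with adjusted p-values of 0.616 and 0.739.

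The genes with several probe sets gave a check on the choice of probe set. In 18 genes 24 further probe sets were on the array, of which 21 passed the filter, and 20 of these 21 had the same sign as the probe set used. The exception was a probe set of Mrpl52 with a change of -0.06.

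The promoters of the genes were read from RefSeq (build GRCr8), which gave 59 of the 73 genes a window of 250 bases before to 50 bases after the start. Shown are the 100 bases before the start of Mrps18b, where the motif letters searched lie, and of Mrpl47 and Mrps2, the genes with the largest changes, where none was found. Capitals mark matches. In Mrps18b, CACGTG is an E-box and the following run of capitals holds 2 overlapping matches to the NRF1 letters GCGCANGCG. The last capitals begin a match to the ETS letters CCGGAAG, read on the other strand, that continues past the start.
Mrps18b chr20:2842906-2843005, + strand: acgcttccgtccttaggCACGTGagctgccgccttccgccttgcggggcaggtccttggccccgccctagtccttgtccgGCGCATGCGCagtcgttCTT
Mrpl47 chr2:117447362-117447461, - strand: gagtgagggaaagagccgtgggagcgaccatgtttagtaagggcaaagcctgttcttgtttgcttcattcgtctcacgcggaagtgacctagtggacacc
Mrps2 chr3:32200977-32201076, + strand: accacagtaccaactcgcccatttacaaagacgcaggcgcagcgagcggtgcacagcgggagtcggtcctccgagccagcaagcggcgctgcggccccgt

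Motifs were searched on both strands of the whole window, and overlapping matches of 1 motif counted once per gene. NRF1 and the ETS factor GABPA are known activators of nuclear genes for mitochondria. The NRF1 letters GCGCANGCG lay in 11 of the 59 promoters (18.6%), against 8.05% of 19005 promoters of protein-coding genes. The ETS letters CCGGAAG lay in 20 (33.9%), against 11.2%, and the YY1 letters AAGATGG in 15 (25.4%), against 7.58%. The E-box CACGTG lay in 6 (10.2%), against 7.27%. At least 1 of the NRF1, ETS and YY1 letters lay in 35 promoters (59.3%), against 23.4% of all. The median change with blebbistatin against pulsed was 0.15 in the genes that held at least 1 of these and 0.18 in those that held none, so the 2 sets of genes lay close together.

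The large and the small subunit had nearly the same median change. Against pulsed, the median log2 change with blebbistatin was 0.16 for the 46 large subunit genes and 0.15 for the 27 small subunit genes. Moving Mrps30 and Mrps18a to the large subunit, where their proteins sit, left the difference of these medians at 0.01. In pulsed against nonpulsed arrays both medians were 0.02, and with blebbistatin against nonpulsed they were 0.20 and 0.18. By origin, the 43 genes with a bacterial counterpart had a median of 0.15 and the 30 found only in mitochondria 0.17 with blebbistatin against pulsed. No gene differed by more than 2-fold within any series.

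**Figure D4:**
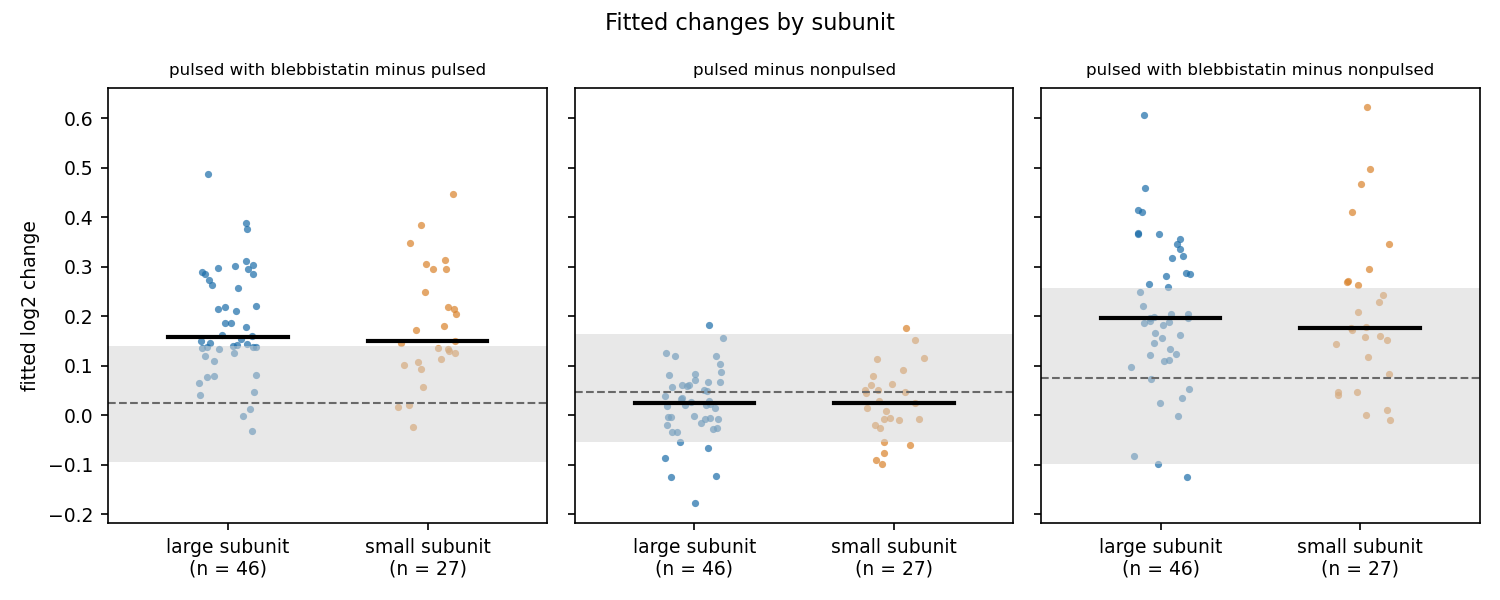
Fitted log2 change (vertical axis) of each large (blue, n = 46) and small subunit gene (orange, n = 27) in the 3 comparisons, with the median of each subunit as a black line. The dashed line and grey band give the median and the quartile range of all genes tested. Both subunits lie mostly above the dashed line in both comparisons of the blebbistatin arrays and around it in pulsed minus nonpulsed.

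The comparison of pulsed with nonpulsed cultures asks about the response to electric pacing. Here the mitochondrial ribosome genes showed no shared direction over the series. The fitted change was positive for 44 genes and negative for 29, against 62.0% positive over all genes, and the median was 0.02, against 0.05. Of the 73 genes, 0 passed the adjusted threshold, as did 0.00% of all genes, with a smallest adjusted p of 0.611 in limma. With no adjustment, 0 were higher, against 7.83% of all genes, and 0 were lower, against 1.27%, at p under 0.05. In 0 genes did every pulsed array lie above every nonpulsed array, against 6.30% of all genes.

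The medians of the differences were 0.25 in series 1, -0.01 in series 2 and -0.06 in series 3, with 68, 36 and 11 genes higher in the pulsed array. Series 1, whose nonpulsed array was low, thus stood against series 3. Without series 1 the fitted median was -0.08, with 11 genes positive. Without the nonpulsed array of series 2 it was 0.09, with 65 positive. Of the 73 genes 1, Mrpl21, the counterpart of bacterial L21, was higher in all 3 series, against 24.7% of all genes. Its log2 values were 8.82, 8.96, 9.02 and 8.78 in pulsed and 8.61, 8.93 and 8.97 in nonpulsed arrays, with a fitted change of 0.07 (SE 0.10, adjusted p = 0.867).

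Mrpl20 and Mrpl17, counterparts of bacterial L20 and L17, were the 2 genes lower in all 3 series. Mrpl20 had 10.02, 10.07, 10.15 and 10.08 in pulsed and 10.10, 10.20 and 10.26 in nonpulsed arrays, a range that overlapped, with a fitted change of -0.12 (SE 0.09, adjusted p = 0.693). Mrpl17 had 11.27, 11.51, 11.48 and 11.20 in pulsed and 11.34, 11.60 and 11.54 in nonpulsed arrays, also with overlap, and a fitted change of -0.09 (SE 0.08, adjusted p = 0.763). Of the genes described above, the fitted change was -0.00 for Mrpl12 (SE 0.14), -0.02 for Mrps12 (SE 0.10), -0.06 for Mrps30 (SE 0.14) and 0.03 for Mrps18a (SE 0.13), all smaller than their standard errors.

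The third comparison set pulsed cultures with blebbistatin against nonpulsed cultures, which differ in both pulses and drug. It shares the blebbistatin arrays with the first comparison and the nonpulsed arrays with the second. The fitted change was positive for 68 of 73 genes, against 61.4% of all genes, with a median of 0.19, against 0.07. Of the 73 genes, 0 passed the adjusted threshold, which 0.343% of all genes did, with a smallest adjusted p of 0.0651 in limma. With no adjustment, 13 were higher (9 large and 4 small subunit genes), against 15.8% of all genes, and 0 were lower, against 6.80%, at p under 0.05. In 36 genes the blebbistatin array was higher in both series that held both groups, against 39.1%, and in 17 every blebbistatin array lay above every nonpulsed array, against 18.1%. The counts past the unadjusted p and without overlap were thus not far from the shares of all genes.

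Within series the medians were -0.00 in series 2 and 0.15 in series 3, with 36 and 67 genes higher. The fitted value also uses series 1 and 4 through their pulsed arrays, and a fit of only the 2 groups compared gave a median of 0.08, while leaving out series 2 gave 0.34. Mrps2 had the largest change at 0.62 (SE 0.11, 1.54-fold, adjusted p = 0.0651), followed by Mrpl47 at 0.61 (SE 0.11, 1.52-fold, adjusted p = 0.0651). The fitted change was 0.50 for Mrps18b (adjusted p = 0.0824), 0.46 for Mrpl38 (adjusted p = 0.156) and 0.28 for Mrpl12 (adjusted p = 0.317). For Mrps18a, Mrps30 and Mrps12 it was 0.15, 0.14 and 0.00.

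Mrps5, the counterpart of bacterial S5 near the decoding centre, had log2 values of 9.15, 9.31 and 9.24 with blebbistatin, against 8.86, 8.96, 8.96 and 8.76 in pulsed and 8.56, 8.72 and 8.96 in nonpulsed arrays. The blebbistatin arrays were the highest, and the fitted change against nonpulsed was 0.47 (SE 0.11, adjusted p = 0.0943). Among genes lower in both series, the fitted change was -0.13 for Mrpl20 (SE 0.10, adjusted p = 0.485), -0.01 for Mrps17 (SE 0.12) and -0.00 for Mrpl54 (SE 0.12).

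In 2 of 23 alternative settings Mrps2 passed the adjusted threshold. With culture series as a random block, where 1020 of all genes passed, its adjusted p was 0.028, beside 0.0358 for Mrps5. With a prior that follows the mean level, where 163 passed, it was 0.0491, the same as for Mrpl47. Over the 23 settings the adjusted p ran as high as 0.329 for Mrps2 and Mrpl47 and 0.332 for Mrps5.

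Genes that act with the mitochondrial ribosome were summarised by lists. With blebbistatin against pulsed, all 25 measured assembly factors of the mitochondrial ribosome had a positive change, with a median of 0.19, as did all 15 mitochondrial tRNA synthetases (0.21), all 11 translation factors (0.13), and all 12 genes of the mitochondrial unfolded protein response (0.22). Mitochondrial protein import was positive in 23 of 25 genes (0.17), mitochondrial transcription and DNA in 10 of 11 (0.17) and the respiratory chain in 65 of 72 (0.12). The list of other proteins of the mitochondrial ribosome was positive in 7 of 7 (0.15) and that of regulators of mitochondrial genes in 9 of 12 (0.06). Over all genes 55.7% had a positive change in this comparison. In these lists 0 genes passed the adjusted threshold in any comparison. The lists differed over the series. In series 2 the respiratory chain was higher with blebbistatin in 28 of 72 genes (median -0.02). The other proteins of the mitochondrial ribosome were higher there in 3 of 7 (-0.01). Medians in series 2, 3 and 4 were 0.18, 0.22 and 0.24 for the assembly factors and 0.23, 0.25 and 0.33 for the tRNA synthetases. The cytosolic ribosome, which makes the mitochondrial ribosome's own proteins, was positive in 13 of 42 genes, with a median of -0.02.

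With blebbistatin against pulsed, the largest change within the tRNA synthetase list was that of Yars2, the mitochondrial tyrosyl-tRNA synthetase (0.47, SE 0.09, adjusted p = 0.167), and in the unfolded protein response that of Afg3l2, a subunit of the protease that matures Mrpl32 (0.47, SE 0.09, adjusted p = 0.199). In the lists of transcription, assembly and translation factors the largest were those of Tefm, an elongation factor of mitochondrial transcription (0.44, SE 0.11), Rpusd4, a pseudouridine synthase that acts on mitochondrial ribosomal RNA (0.43, SE 0.15), and Mtif2, an initiation factor (0.43, SE 0.13). Yars2 was higher by 0.58, 0.43 and 0.43 in series 2, 3 and 4 and Afg3l2 by 0.49, 0.49 and 0.51, so their differences varied less over the series than the median of the ribosome genes. The remaining lists had as their largest Ppargc1b (0.49, SE 0.33), Cox7a1, a subunit of cytochrome c oxidase (0.46, SE 0.24), Timm8a1, an import chaperone (0.40, SE 0.15), Rpl28 of the cytosolic ribosome (-0.28, SE 0.09) and Slirp (0.21, SE 0.12). The fit gave 0.29 for Tfam, which packages mitochondrial DNA (SE 0.10), and 0.31 for Polrmt, the mitochondrial RNA polymerase (SE 0.15). It was 0.21 for Tufm, an elongation factor (SE 0.16), and 0.30 for the coactivator Ppargc1a (SE 0.20).

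In pulsed against nonpulsed arrays the respiratory chain was positive in 71 of 72 genes with a median of 0.14, and the assembly factors in 23 of 25 with 0.12, above the 0.02 of the ribosome genes. Over all genes 62.0% were positive. The respiratory chain medians were 0.45, 0.09 and -0.02 in series 1, 2 and 3, and in series 3 only 30 of the 72 genes were higher. For the assembly factors they were 0.24, 0.08 and 0.01. All 12 regulators of mitochondrial genes were positive (median 0.18), led by the coactivator Ppargc1b at 1.03 (SE 0.33, adjusted p = 0.495) and with Ppargc1a at 0.50 (SE 0.20, adjusted p = 0.528). The regulator list had medians of 0.33, 0.22 and 0.06 in series 1, 2 and 3. The cytosolic ribosome had a median of 0.01.

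**Figure D5:**
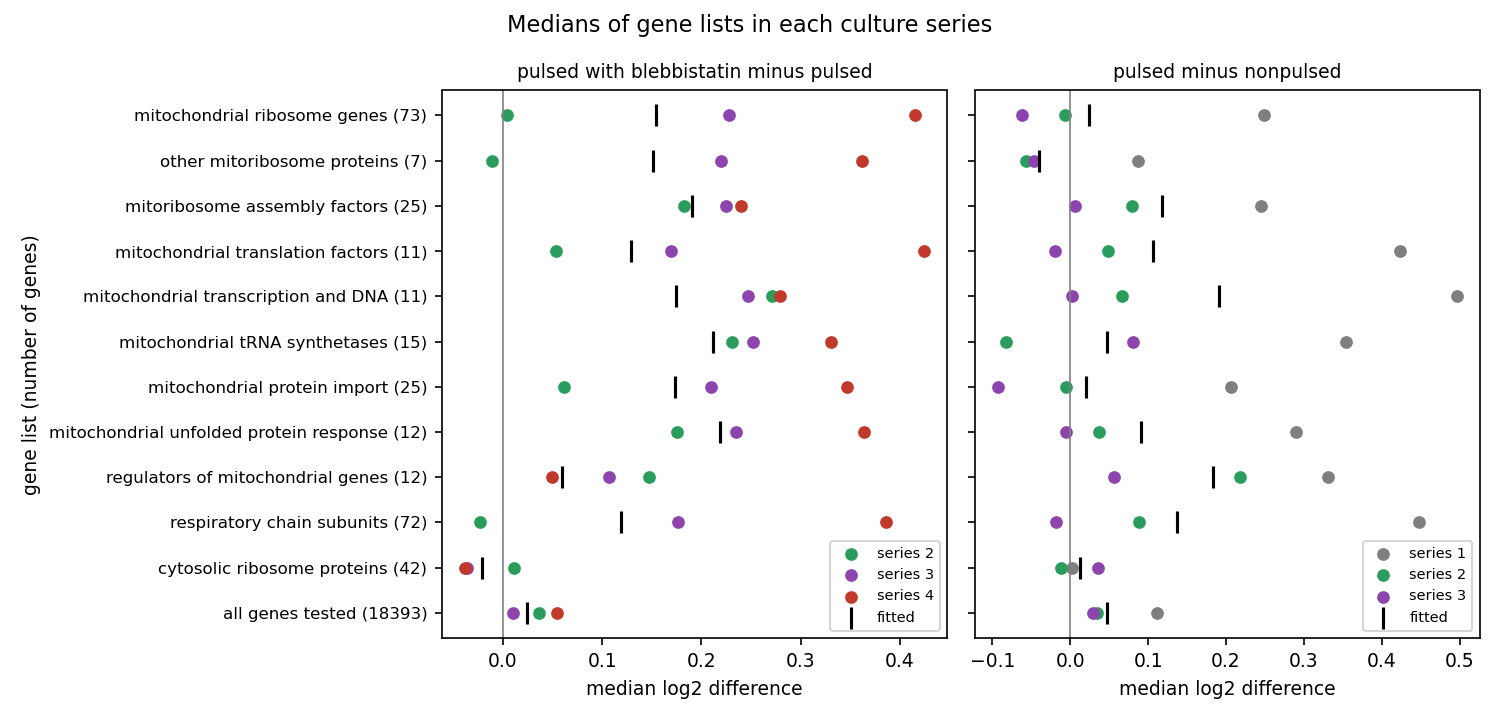
Median log2 difference (horizontal axis) of the mitochondrial ribosome genes, the related gene lists and all genes tested (vertical axis, with the number of genes), with 1 dot per culture series and a black bar for the fitted change. The mitochondrial ribosome, translation factor, import and respiratory chain lists spread widely over the series in both comparisons, whereas the cytosolic ribosome stays near 0 in each.

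Markers of other cell types had mostly lower values with blebbistatin. Against pulsed, all 11 smooth muscle and pericyte markers had a negative change (median -0.36), as did 10 of 12 fibroblast (-0.27), 8 of 9 macrophage and leukocyte (-0.23) and 5 of 7 endothelial markers (-0.13), while cardiomyocyte markers were positive in 7 of 11 (0.03). The log2 summed level of the smooth muscle markers was 13.72 to 13.96 with blebbistatin, 14.35 to 14.52 in pulsed and 14.21 to 14.80 in nonpulsed arrays, so the blebbistatin range lay below both others. This sum rests mostly on Acta2, Tagln and Des (mean log2 values of 12.62, 12.16 and 12.07), which are not particular to smooth muscle cells. For fibroblast markers it was 14.97 to 15.69 with blebbistatin, 15.18 to 15.92 in pulsed and 15.30 to 15.94 in nonpulsed arrays. For macrophage and leukocyte markers it was 10.52 to 11.53 with blebbistatin, 10.65 to 12.29 in pulsed and 10.80 to 12.55 in nonpulsed arrays. For endothelial markers it was 10.45 to 11.01 with blebbistatin, 10.41 to 11.05 in pulsed and 10.36 to 10.97 in nonpulsed arrays. In pulsed against nonpulsed arrays the fitted change was positive for all 11 cardiomyocyte markers, with a median of 0.34. Within series 1, 2 and 3 the medians were 0.81, 0.21 and 0.05, and 7 of the 11 were higher in series 3. Of all markers, Cd163 and Vwf were at the lowest value on 4 arrays each. The part of these cell types in the values of the mitochondrial ribosome genes was not tested.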

How the data were processed

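Total RNA was hybridised to Affymetrix arrays. The deposited log2 values, 1 per probe set and array, come, per the submitters' processing notes, from PLIER as run by the authors in Affymetrix Expression Console 1.1. Its settings and log base are not stated in the labels, and base 2 was inferred from the values. Values of equal rank lay within 0.263 of each other over the arrays, and no scaling was added.

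Of 31099 probe sets, 57 controls and those in the lowest 25% of mean value (under 5.09) were left out. The probe set with the highest mean stood for a gene with 1 symbol. Probe sets with no symbol or several stayed as rows of their own. This left 18393 rows, of which 11846 had 1 symbol, and shares of all genes are over all rows. Symbols came from the platform annotation, and all 73 matched the RefSeq table of GRCr8. limma 3.58.1 in R 4.3.3 (lmFit, contrasts, eBayes, two-sided) was fitted to the 10 arrays with a fixed block for the culture series and Benjamini-Hochberg adjustment over all rows at 0.05, and was tested on simulated data. The titles give a date for each array. Arrays that share a date were taken as a culture series, and the series are numbered in order of date. Deviations from group means correlated at 0.347 to 0.640 within series (8 pairs, median 0.423). Between arrays of different series and group they correlated at -0.583 to 0.494 (25 pairs, median -0.247), so the ranges overlapped. The design text speaks of 3 arrays per treatment, the labels give 4 pulsed arrays, and all were used. The block takes out level differences between series, so p-values measure how far treatment differences vary from one culture series to another.

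The members and lists were chosen with earlier results of these data known. Named were, per comparison, genes past the threshold, the 5 largest rises and 5 largest falls among genes that moved alike in every series, Mrpl12, Mrps12, Mrps30 and Mrps18a, the largest change of each list, and Ppargc1a, Tfam, Polrmt and Tufm. Mrpl52 and genes named in a comparison where this rule did not select them were picked with their values known. Alternatives were the block, groups fitted, normalization, filter, probe set rule, prior, each array and each series left out, and the subunit assignment.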

Additional observations from a re-analysis of the deposited data

How the results depend on the processing

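In every alternative run, 0 mitochondrial ribosome genes passed in pulsed minus nonpulsed and in blebbistatin minus pulsed. In blebbistatin minus nonpulsed 2 passed with a random block and 2 with a trended prior, and 0 in the other alternatives. Without the replicate block the medians were 0.22 for blebbistatin minus pulsed, -0.01 for pulsed minus nonpulsed and 0.23 for blebbistatin minus nonpulsed, and no call changed. The counts of positive changes and of an unadjusted p under 0.05 were added after seeing the data. In pulsed minus nonpulsed 15 genes were positive with median centring, 11 without series 1 or either of its arrays, and 11 to 65 over all single arrays left out. Of all genes, 44.1% were positive with median centring and 57.4% without series 1, against 62.0% in the main fit. In blebbistatin minus pulsed, genes higher at an unadjusted p under 0.05 numbered 19 with only the 2 groups. They numbered 25, 3 and 3 without series 1, 3 and 4, and 3 to 25 without single arrays. The shares of all genes were 8.37% with only the 2 groups and 9.84%, 3.69% and 4.13% without series 1, 3 and 4. The counts without series 3 or 4 thus lay near the share of all genes. In blebbistatin minus nonpulsed such genes numbered 4 with only the 2 groups and 6 with median centring. They numbered 8, 5 and 4 without series 1, 3 and 4, and 4 to 25 without single arrays. The shares of all genes were 10.4% with only the 2 groups, 10.7% with median centring and 13.1%, 11.9% and 12.5% without series 1, 3 and 4. The counts in these settings lay below those shares. Without the blebbistatin array of series 2, which gave 25 genes, the share was 12.4%. The median change in blebbistatin minus nonpulsed was 0.085 with only the 2 groups, 0.34 without series 2 and 0.13 to 0.32 without single arrays. Among single arrays it was highest without the blebbistatin array of series 2. The large minus small subunit difference in blebbistatin minus pulsed was 0.045 without series 3 and -0.029 to 0.048 without single arrays, and in blebbistatin minus nonpulsed -0.0074 without series 2 and -0.025 to 0.039 without single arrays. The cause was not tested.

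Named genes near 0 changed sign. In pulsed minus nonpulsed, Mrpl12 was 0.12 with the mean of its probe sets, 0.050 with only the 2 groups, 0.067, 0.044 and 0.050 without series 2, 3 and 4, and -0.16 to 0.094 without single arrays. Mrps12 was 0.017 with only the 2 groups and without series 4, and -0.075 to 0.017 without single arrays. Mrps18a was -0.043 with median centring, -0.013 with quantile normalization, -0.13 without series 1 and -0.13 to 0.15 without single arrays. Mrpl21 was -0.0040 with median centring. Mrps30 was 0.012 without series 3 and -0.21 to 0.025 without single arrays. In blebbistatin minus pulsed, Mrps12 was -0.079 without series 4 and -0.079 to 0.096 without single arrays. In blebbistatin minus nonpulsed, Mrps12 was -0.082 with median centring, -0.054 with only the 2 groups, -0.046 with quantile normalization, -0.062 without series 4 and -0.062 to 0.089 without single arrays. Mrps30 was -0.00047 with only the 2 groups. Mrps17 was 0.068 and 0.047 without series 2 and 3 and -0.077 to 0.075 without single arrays, and Mrpl54 was 0.095 and 0.027 without them and -0.061 to 0.069 without single arrays.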

Other observations

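The differences of the 73 genes between blebbistatin and pulsed arrays were compared between series, as a description across genes that share arrays. Pearson's r was 0.64 between series 3 and 4, 0.41 between series 2 and 3 and 0.16 between series 2 and 4. Over all genes tested it was 0.47, 0.32 and 0.16. For pulsed against nonpulsed arrays r over the 73 genes was 0.32 between series 1 and 2, -0.24 between series 1 and 3 and -0.02 between series 2 and 3.

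With blebbistatin against nonpulsed, the largest changes in the related lists included those of Ppargc1b (1.52, SE 0.37, adjusted p = 0.0943), Cox8b, a subunit of cytochrome c oxidase (0.78, SE 0.21, adjusted p = 0.111), Polrmt (0.71, SE 0.17, adjusted p = 0.0948), Afg3l2 (0.69, SE 0.10, adjusted p = 0.0538) and Vars2, the mitochondrial valyl-tRNA synthetase (0.69, SE 0.14, adjusted p = 0.0779). None passed the threshold in limma.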
